A study of Mus musculus with 16 samples.

Results

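Dual-specificity phosphatases (Dusp) remove phosphate from both the threonine and the tyrosine that switch on a MAP kinase, and so turn ERK, JNK and p38 off. The 10 genes described here, Dusp1, Dusp2, Dusp4, Dusp5, Dusp6, Dusp7, Dusp8, Dusp10, Dusp14 and Dusp16, were taken by name. Each was read from its probe set that maps to exactly 1 symbol, using the brightest where there were several, which gave 10 of the 22180 genes measured. Of these, 9 had a single such probe set and Dusp6 had 2. All 10 were tested, since no gene was filtered on its level.

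The data are 16 hippocampal arrays, 4 in each of 4 groups, of C57BL/6 mice aged 8 to 10 weeks. Control mice carried the glial cre on a wild type background, and Astro-D2KO mice carried the same glial cre with floxed D2, the type 2 deiodinase gene Dio2 that makes active thyroid hormone in astrocytes. All 4 groups were given LiCl (10 mEq/kg) first, so the saline groups were lithium treated too, and the injection of saline or of 65 mg/kg pilocarpine followed after 18 h. Pilocarpine induced status epilepticus (SE), a prolonged seizure, and the drug and the seizure cannot be told apart here. The sources used here do not give the promoter behind the glial cre, the time from pilocarpine to tissue collection, or whether each array held 1 mouse, so p-values measure the spread between these arrays.

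As background, most of these phosphatases are made on demand. MAP kinases activate transcription factors such as the Elk proteins, and the genes switched on include Dusp genes, whose products then silence the kinases in a negative feedback loop. The family divides by place and target: Dusp1, Dusp2, Dusp4 and Dusp5 act in the nucleus, Dusp6 and Dusp7 hold ERK in check in the cytoplasm, Dusp8, Dusp10 and Dusp16 prefer JNK and p38, and Dusp14 is a small member without the kinase-binding domain of the others. In hippocampal neurons the ERK pathway is activated by synaptic activity and by seizures, and it is needed for lasting synaptic change.

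Array medians lay between 5.77 and 5.82 and correlations between arrays between 0.969 and 0.990 over all probe sets. The 8 neuronal markers had group means from 7.84 to 12.91, against a median gene at 6.24 to 6.27. Dio2 was lower in Astro-D2KO than in control mice by 1.36 ± 0.348 under saline and 1.41 ± 0.348 after SE (log2, standard error), neither past the threshold over all genes (limma, adjusted p = 0.999 and 0.532). Among control SE arrays, replicate 4 had a Dio2 level of 7.99 and the rest had 9.11 to 9.51. Among Astro-D2KO SE arrays, replicate 1 had 8.91 and the rest had 7.03 to 7.17. The Dio2 level of the array labelled Astro-D2KO SE replicate 1 thus went against its label. This rests on Dio2 alone, and its cause was not tested. The counts of called genes below were also made without these 2 arrays. The levels are log2 values, so a difference of 1 is a doubling, and levels of different genes are not compared because each probe set has its own brightness.

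Among the promoters, those of Dusp1, Dusp5 and Dusp8, which rose after SE, held a full CRE or a CArG box, motifs of transcription factors that respond to neuronal activity. They are printed with that of Dusp7, which did not pass, so that the letters can be read beside the values that follow. The printed genes were picked, and motif and rise did not go together in several others. Dusp6, Dusp10 and Dusp14 also rose, with no match. Dusp2, which did not pass, held a CRE core and an EGR site. Whether motif and rise go together was not tested. RefSeq sequence (GRCm38.p6) was matched for 9 of the 10 genes, Dusp4 being the exception. Each run is the 250 bases before the annotated start, 5′ to 3′ on the gene's strand. Capitals mark the cyclic AMP response element (CRE, TGACGTCA), its core TGACG on either strand, and the CArG box. As background, the CRE is bound by CREB and the CArG box by serum response factor, the partner of the Elk proteins.
Dusp1, chr17:26508473-26508722, minus strand: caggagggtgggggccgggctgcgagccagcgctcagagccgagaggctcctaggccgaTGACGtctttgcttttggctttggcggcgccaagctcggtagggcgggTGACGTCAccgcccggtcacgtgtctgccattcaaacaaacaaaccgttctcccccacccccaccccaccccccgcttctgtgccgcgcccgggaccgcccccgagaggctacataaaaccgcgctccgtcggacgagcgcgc
Dusp5, chr19:53528895-53529144, plus strand: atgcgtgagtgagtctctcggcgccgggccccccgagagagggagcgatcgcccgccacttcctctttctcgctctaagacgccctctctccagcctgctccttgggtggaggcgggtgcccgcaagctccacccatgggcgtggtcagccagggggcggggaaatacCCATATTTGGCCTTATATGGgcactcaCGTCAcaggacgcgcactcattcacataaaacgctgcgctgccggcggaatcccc
Dusp8, chr7:142095285-142095534, minus strand: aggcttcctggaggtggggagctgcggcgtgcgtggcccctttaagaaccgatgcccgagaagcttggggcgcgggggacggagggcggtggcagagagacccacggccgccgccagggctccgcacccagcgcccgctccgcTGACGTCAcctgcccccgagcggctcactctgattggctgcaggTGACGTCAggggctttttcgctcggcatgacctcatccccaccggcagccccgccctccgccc
Dusp7, chr9:106368382-106368631, plus strand: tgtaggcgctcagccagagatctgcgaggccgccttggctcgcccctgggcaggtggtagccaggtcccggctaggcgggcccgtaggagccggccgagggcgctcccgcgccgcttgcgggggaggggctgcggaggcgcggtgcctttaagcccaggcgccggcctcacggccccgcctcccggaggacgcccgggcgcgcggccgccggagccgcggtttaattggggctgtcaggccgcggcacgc

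With bases before the start counted backwards from -1, Dusp1 held a full CRE at -143 to -136 and a further CRE core at -191 to -187. In Dusp5, a pair of adjoining CArG boxes lay from -82 to -63, with a CRE core at -55 to -51. The Dusp8 window held 2 full CREs, beginning at -107 and -63. That start lies 623 bases inside the annotated 5′ end of the gene, so a longer transcript runs through the window. For Dusp7 the offset was 72 bases, for Dusp14 899 and for Dusp16 14435, and it was 0 for the other 5 genes with a sequence.

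The search covered both strands of the whole windows, which also take in 50 bases from the start onward, and used 7 motifs, the CRE core being contained in each full CRE. A full CRE was found in 2 of the 9 windows and in 1.79% of all 32851 promoter windows of the same length. CArG boxes were found in 1 of the 9 and in 1.63% of all. The CRE core was found in 5 of the 9 (Dusp1, Dusp2, Dusp5, Dusp8 and Dusp16) and in 20.8% of all. An EGR site (GCGNGGGCG) was found in Dusp2 and Dusp16 and in 5.55% of all, and the hexamer of thyroid hormone receptor sites (AGGTCA) in Dusp8 and Dusp16 and in 16.3%. An AP-1 site (TGANTCA, in 7.81% of all windows) and an ETS site (CCGGAAG, in 8.86%) matched 0 of the 9. The windows of Dusp6, Dusp7, Dusp10 and Dusp14 held none of the 7 motifs, and a missing match says only that these letters are not in these windows. A match describes the letters and does not show that a factor binds there.

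**Figure D1:**
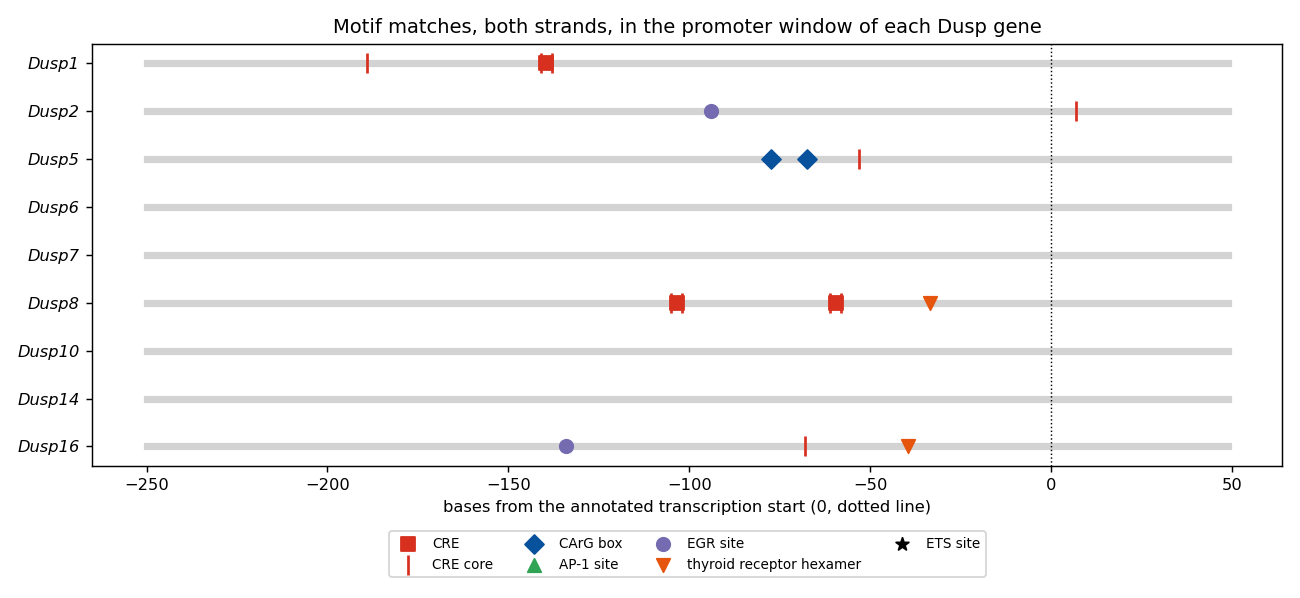
Position of each motif match (symbols, both strands) in the promoter window of the 9 Dusp genes with a sequence; the x axis is bases from the annotated start, the grey bars are the windows. Full CREs are seen in Dusp1 and Dusp8 and CArG boxes in Dusp5, while Dusp6, Dusp7, Dusp10 and Dusp14 have no symbol.

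The main comparison asked how SE alters these genes in control mice. Dusp1, Dusp4, Dusp5 and Dusp6 rose more than 4-fold, Dusp16 rose 2.43-fold, and Dusp8, Dusp10 and Dusp14 rose by less than 2-fold, while Dusp2 and Dusp7 did not pass the test. Of the 10 genes, 8 rose and 0 fell (limma, adjusted p under 0.05 over all genes), where 8.42% of all genes rose and 13.7% fell. The median change of the 10 was 1.02 on the log2 scale, against -0.02 over all genes. The arrays of the SE and saline groups did not overlap for the same 8 genes, against 8.46% of all genes that were apart with SE higher and 13.7% with SE lower. Fewer cells of a type and less RNA per cell cannot be told apart in tissue RNA such as this.

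In Astro-D2KO mice the order was alike, with Dusp1, Dusp6, Dusp4 and Dusp5 at the top and Dusp16 next. Here 7 genes rose and 0 fell, beside 7.49% of all genes that rose and 12.6% that fell, and Dusp2, Dusp7 and Dusp14 did not pass. The median was 0.90, against -0.01 over all genes. The 7 that rose were also the 7 whose groups were apart, which held with SE higher for 9.54% of all genes and with SE lower for 15.1%. Averaged over genotypes 8 rose and 0 fell, against 12.1% and 20.6% of all genes. Without both arrays whose Dio2 stood apart, the counts stayed at 8, 7 and 8 genes.

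**Figure D2:**
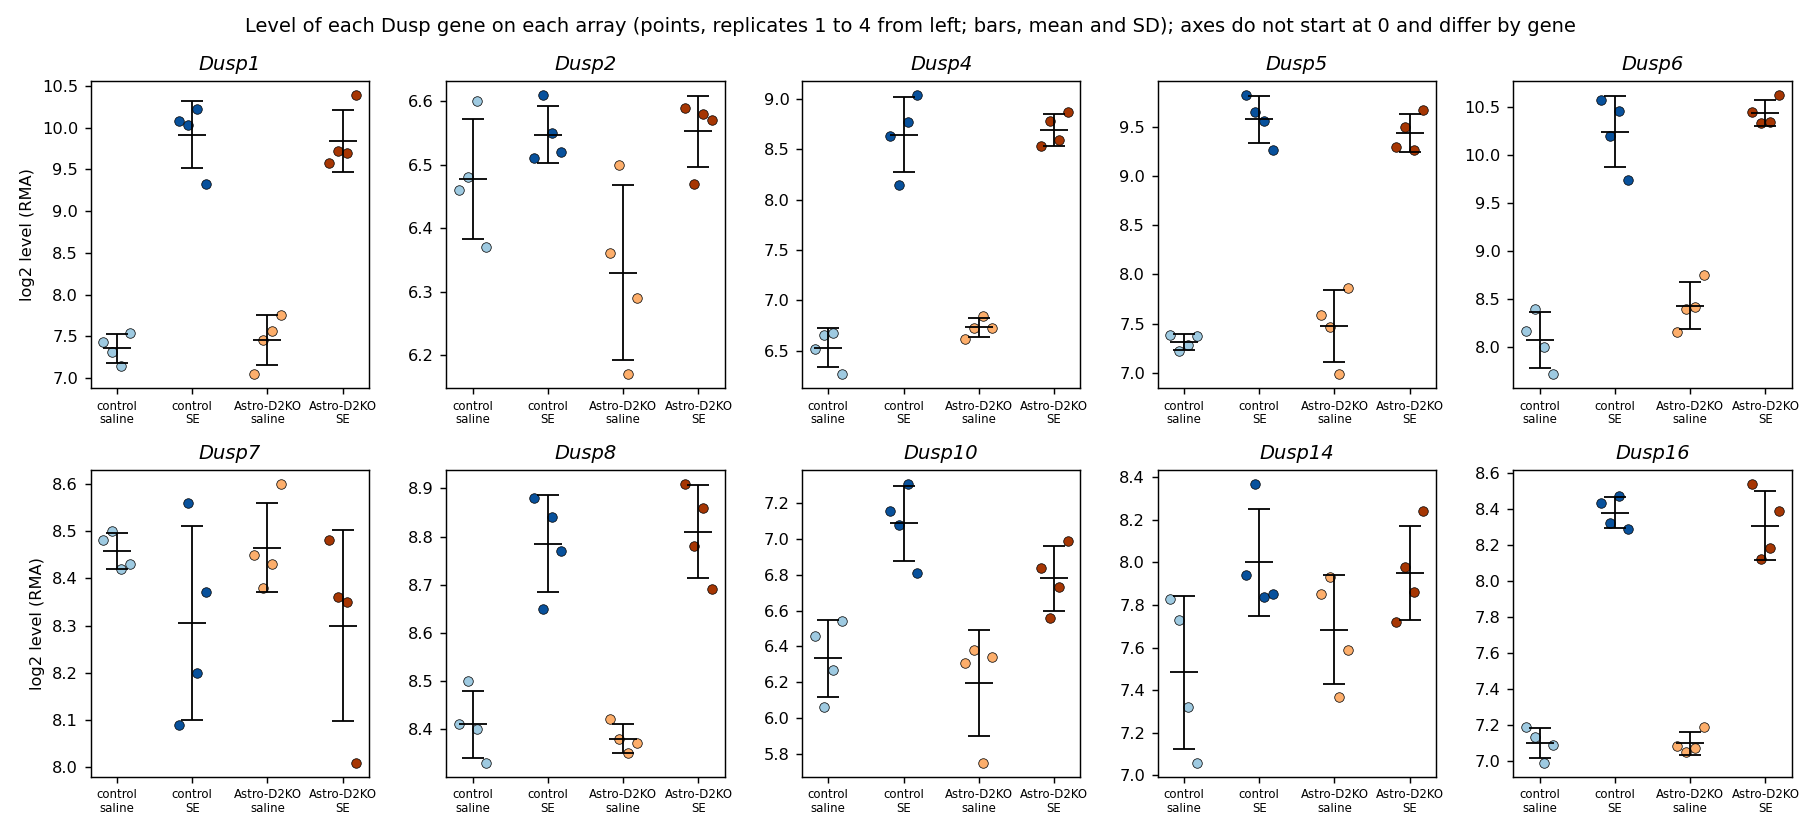
Log2 level of the 10 Dusp genes on every array (points, replicates 1 to 4 from left to right) in the 4 groups, with the group mean and SD as bars; y axes are log2 RMA values, do not start at 0 and differ by gene. For Dusp1, Dusp4, Dusp5, Dusp6 and Dusp16 every SE point lies above every saline point, whereas Dusp2 and Dusp7 overlap in both genotypes.

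Among the nuclear phosphatases, Dusp1, also called MKP-1, acts on p38, JNK and ERK and is a classic immediate early gene that glucocorticoids also induce. In control mice it stood at 7.43, 7.31, 7.14 and 7.54 under saline and at 10.08, 10.03, 10.22 and 9.33 after SE (log2, replicates 1 to 4). In Astro-D2KO mice the levels were 7.05, 7.46, 7.57 and 7.75 under saline and 9.57, 9.72, 9.69 and 10.39 after SE. All SE arrays were thus well above all saline arrays, and control SE replicate 4 was the lowest of the 8 SE arrays. The rise was 2.56 ± 0.198 in control mice (log2 change and standard error, 5.89-fold, adjusted p = 1.18e-07) and 2.39 ± 0.198 in Astro-D2KO mice (5.23-fold, adjusted p = 2.98e-07). Without control SE replicate 4 the rise in control mice was 2.75. A change of this size in either direction was seen in 0.117% of all genes in control mice.

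Dusp4 (MKP-2), a close relative of Dusp1 in sequence and substrates, stood at 6.52, 6.66, 6.68 and 6.27 in control mice under saline and at 8.63, 8.15, 8.77 and 9.04 after SE. Astro-D2KO arrays read 6.62, 6.73, 6.85 and 6.73 under saline and 8.53, 8.78, 8.59 and 8.87 after SE. Here control SE replicate 4 was the highest of its group, the reverse of its place for Dusp1. The rises were 2.12 ± 0.146 (4.34-fold, adjusted p = 3.41e-08) and 1.96 ± 0.146 (3.90-fold, adjusted p = 9.49e-08), and in control mice the rise was 1.99 without that array.

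Dusp5 binds and inactivates ERK and holds it in the nucleus. Its levels in control mice were 7.39, 7.22, 7.28 and 7.37 under saline and 9.82, 9.65, 9.56 and 9.26 after SE. In Astro-D2KO mice they were 7.59, 7.47, 6.99 and 7.86, then 9.29, 9.50, 9.26 and 9.67. The saline arrays were more scattered in Astro-D2KO mice (SD 0.36) than in control mice (SD 0.08), and no SE array came near them. The change was 2.26 ± 0.152 in control mice (4.78-fold, adjusted p = 3.15e-08) and 1.95 ± 0.152 in Astro-D2KO mice (3.87-fold, adjusted p = 1.48e-07).

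Dusp2 (PAC-1), best known from activated leukocytes, was the nuclear member that did not pass. It read from 6.37 to 6.60 in control mice under saline and from 6.51 to 6.61 after SE, so the groups overlapped. In Astro-D2KO mice it read from 6.17 to 6.5 under saline and from 6.47 to 6.59 after SE, again with overlap. The differences were 0.07 ± 0.0785 (adjusted p = 0.605; 95% interval -0.10 to 0.23) and 0.22 ± 0.0785 (adjusted p = 0.0555; interval 0.06 to 0.39). The difference in Astro-D2KO mice passed when arrays were centred on their median (0.25, adjusted p = 0.036), when quantile normalisation was repeated (0.26, adjusted p = 0.0225), when only the brighter genes were tested (0.22, adjusted p = 0.0244), and without Astro-D2KO saline replicate 2 (0.28, adjusted p = 0.0224). Even then it was small beside the rises of Dusp1, Dusp4 and Dusp5.

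Both cytoplasmic ERK phosphatases among the 10 listed genes were measured, and they behaved differently. Dusp6 (MKP-3), which is specific for ERK and is a standard readout of ERK signalling, stood at 8.17, 8.40, 8.00 and 7.72 in control mice under saline and at 10.57, 10.19, 10.45 and 9.74 after SE. In Astro-D2KO mice the arrays read 8.16, 8.39, 8.42 and 8.75, then 10.44, 10.33, 10.34 and 10.62. Every SE array lay above every saline array, with control SE replicate 4 the lowest of the SE arrays. The rises were 2.16 ± 0.169 (4.48-fold, adjusted p = 1.32e-07) and 2.00 ± 0.169 (4.01-fold, adjusted p = 3.85e-07).

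The second Dusp6 probe set was dim, with levels from 3.45 to 3.99 in all 16 arrays, and it did not separate the groups. Taken as the mean of both probe sets, the rise of Dusp6 was 1.11 in control and 1.05 in Astro-D2KO mice, and both still passed. The dim probe set lay below every array's median and the brighter one above it.

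Dusp7, the other cytoplasmic ERK phosphatase listed, read 8.48, 8.50, 8.42 and 8.43 in control mice under saline and 8.09, 8.56, 8.20 and 8.37 after SE. Its Astro-D2KO arrays read 8.45, 8.38, 8.43 and 8.60, then 8.48, 8.36, 8.35 and 8.01. The SE arrays spread around and below the saline arrays in both genotypes. The differences of -0.15 ± 0.107 (adjusted p = 0.356; 95% interval -0.38 to 0.07) and -0.17 ± 0.107 (adjusted p = 0.324; interval -0.39 to 0.06) did not pass, and both intervals lie below the smallest rise among the genes that rose in both genotypes, the 0.38 of Dusp8 in control mice. Averaged over genotypes the difference was -0.16 (adjusted p = 0.123), and it passed without control SE replicate 2 (-0.20, adjusted p = 0.0393).

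All 3 phosphatases directed at JNK and p38 rose, by less than Dusp1, Dusp4, Dusp5 and Dusp6 and by more than the differences of Dusp2. Dusp16 (MKP-7), which shuttles between nucleus and cytoplasm and acts on JNK, read 7.19, 7.13, 6.99 and 7.09 in control mice under saline and 8.43, 8.32, 8.47 and 8.29 after SE. In Astro-D2KO mice the values were 7.08, 7.05, 7.07 and 7.19, then 8.54, 8.12, 8.18 and 8.39. All saline arrays lay between 6.99 and 7.19, and the SE arrays formed a second tight set. The rises were 1.28 ± 0.0892 (2.43-fold, adjusted p = 4.01e-08) and 1.21 ± 0.0892 (2.31-fold, adjusted p = 9.22e-08). The standard error was less than that of Dusp1, 0.198, and the adjusted p-values were lower although the change was smaller.

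Dusp10 (MKP-5), a phosphatase of p38 and JNK, read 6.46, 6.06, 6.27 and 6.54 in control mice under saline and 7.16, 7.08, 7.31 and 6.81 after SE. The Astro-D2KO arrays read 6.31, 6.38, 5.75 and 6.34, then 6.84, 6.56, 6.73 and 6.99. The groups were apart in both genotypes, and by least in Astro-D2KO mice, where the highest saline array (6.38) was close to the lowest SE array (6.56). It rose by 0.76 ± 0.146 (1.69-fold, adjusted p = 0.00108) and by 0.59 ± 0.146 (1.5-fold, adjusted p = 0.00803). Without Astro-D2KO saline replicate 3 the latter was 0.44 and still passed (adjusted p = 0.0293).

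Dusp8, a phosphatase of JNK and p38 that is strong in brain, read 8.41, 8.50, 8.40 and 8.33 in control mice under saline and 8.88, 8.65, 8.84 and 8.77 after SE. Astro-D2KO arrays read 8.42, 8.38, 8.35 and 8.37, then 8.91, 8.78, 8.86 and 8.69. The shift was small, yet every SE array was above every saline array. The rises were 0.38 ± 0.0728 (1.30-fold, adjusted p = 0.00116) and 0.43 ± 0.0728 (1.35-fold, adjusted p = 0.000420).

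Dusp14 (MKP-6), the small member, read 7.83, 7.73, 7.32 and 7.06 in control mice under saline and 7.94, 8.37, 7.84 and 7.85 after SE. In Astro-D2KO mice it read 7.85, 7.93, 7.37 and 7.59, then 7.72, 7.98, 7.86 and 8.24. The control groups were barely apart, the highest saline array at 7.83 and the lowest SE array at 7.84, and the Astro-D2KO groups overlapped. The rise of 0.51 ± 0.173 in control mice (1.43-fold, adjusted p = 0.0410) was near the threshold, and the difference of 0.26 ± 0.173 in Astro-D2KO mice did not pass (adjusted p = 0.328). The call in control mice was lost without control saline replicate 3 (0.46, adjusted p = 0.108), control saline replicate 4 (0.37, 0.138), control SE replicate 1 (0.53, 0.064), control SE replicate 2 (0.39, 0.135) or Astro-D2KO SE replicate 2 (0.51, 0.0504), and when only the control groups entered the fit (0.51, 0.0672). Averaged over genotypes it rose by 0.39 (adjusted p = 0.0200).

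**Figure D3:**
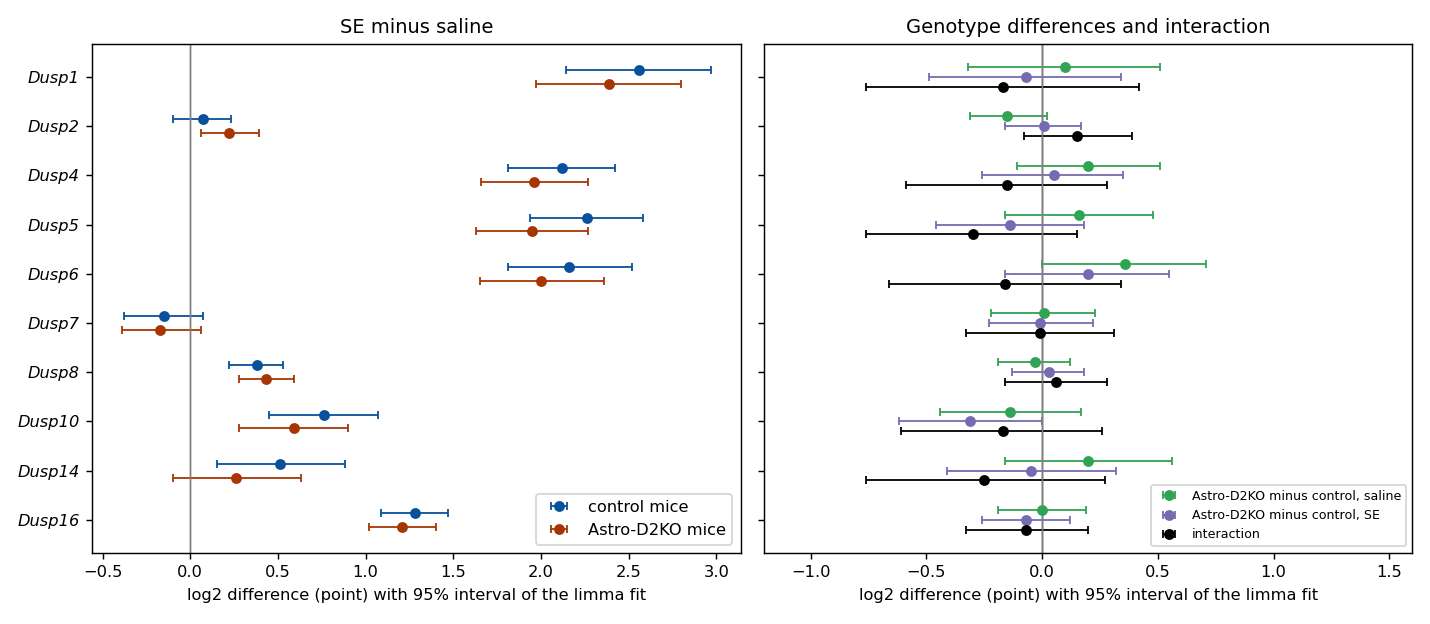
Log2 differences of the 10 Dusp genes (points) with 95% intervals of the limma fit (bars): SE minus saline in each genotype on the left, genotype differences and the interaction on the right. The left panel shows Dusp1, Dusp4, Dusp5 and Dusp6 near 2 or above in both genotypes, and in the right panel the intervals include 0 or end at 0.00.

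Astro-D2KO mice were set against control mice under saline and after SE to ask whether the floxed deiodinase gene alters these phosphatases. Limma called 0 of the 10 in either comparison, as it called 0% of all genes, and at an unadjusted p under 0.05 there were 0 of the 10 under saline (885 of all genes, 3.99%) and 1 after SE (1358, 6.12%). No Dusp gene had Astro-D2KO and control arrays apart, while under saline 1.27% of all genes were apart with Astro-D2KO higher and 1.34% with it lower, and after SE 1.53% and 1.40%. Median differences of the 10 were 0.05 under saline and -0.03 after SE.

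The largest difference between genotypes under saline was that of Dusp6, at 0.36 ± 0.169 (unadjusted p = 0.0505, adjusted p = 0.999), from 8.08 ± 0.29 in control to 8.43 ± 0.24 in Astro-D2KO mice (SD, n = 4). After SE the Dusp6 difference was 0.20 ± 0.169, and it was 0.03 without both arrays whose Dio2 stood apart. The 1 gene under 0.05 before adjustment after SE was Dusp10, at -0.31 ± 0.146 (unadjusted p = 0.0497, adjusted p = 0.815), from 7.09 ± 0.21 to 6.78 ± 0.18 (SD, n = 4), and at -0.42 without both arrays (adjusted p = 0.349). Averaged over treatments, 2 genes were under 0.05 before adjustment (1191 of all genes, 5.37%): Dusp6 at 0.28 (interval 0.02 to 0.53, adjusted p = 0.901) and Dusp10 at -0.22 (interval -0.44 to 0.00, adjusted p = 0.901). Neither held over all genes, and the averaged comparison called 0 of the 10.

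For other members the intervals bound the genotype difference more closely. Dusp8 had 95% intervals of -0.19 to 0.12 under saline and -0.13 to 0.18 after SE, and Dusp16 of -0.19 to 0.19 and -0.26 to 0.12. Dusp1 was less well bounded, at -0.32 to 0.51 under saline and -0.49 to 0.34 after SE. A difference larger than these bounds is outside the interval, and a smaller one is not excluded. The bounds are not limits of detection over all genes. With 4 arrays a group, even the Dio2 difference of -1.36 ± 0.348 under saline did not pass (limma, adjusted p = 0.999).

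The interaction asked directly whether the response to SE depended on genotype, and it was called for 0 of the 10 genes and for 0% of all genes, with 0 of the 10 under 0.05 before adjustment (1031 of all genes, 4.65%). The SE change in Astro-D2KO mice less the change in control mice ranged from -0.30 ± 0.215 for Dusp5 (95% interval -0.76 to 0.15) to 0.15 ± 0.111 for Dusp2 (interval -0.08 to 0.39). For Dusp14, called in control mice alone, it was -0.25 ± 0.244 (interval -0.76 to 0.27, adjusted p = 0.998), so a difference between genotypes in its response was not shown. Leaving out 1 array moved it between -0.10 (without control saline replicate 4) and -0.36 (without control saline replicate 1), and it was -0.12 without control SE replicate 2 and -0.16 without Astro-D2KO saline replicate 2. The Dusp5 value moved between -0.18 (without Astro-D2KO saline replicate 4) and -0.46 (without Astro-D2KO saline replicate 3). The 10 interactions had a median of -0.16, against 0.00 over all genes, and their adjusted p-values were 0.998 or above.

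Within groups, correlations between members ran from positive to negative, with many pairs near 0. They were not set against those of other gene pairs, so the members are not shown to vary together. After each group's mean was removed, the highest Pearson correlations over the 16 arrays were of Dusp5 with Dusp10 (0.71) and of Dusp1 with Dusp6 (0.65), and the lowest was of Dusp4 with Dusp7 (-0.44); these are descriptions over arrays that share their group means and processing. Control SE replicate 4 was the lowest of its group for Dusp1, Dusp5, Dusp6, Dusp10 and Dusp16 and the highest for Dusp4. Its log2 level minus the mean of the other 3 control SE arrays was -0.78 for Dusp1, -0.66 for Dusp6, -0.42 for Dusp5 and 0.52 for Dusp4. Astro-D2KO SE replicate 1 was the highest of its group for 4 members and the lowest for 3, with such differences of 0.31 for Dusp16 and -0.37 for Dusp1.

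The 3 genes most alike in pattern over the 16 arrays were named for each Dusp gene that rose. For Dusp1 they were Frmd6 (Pearson r = 0.994), Nr4a1, an orphan nuclear receptor (0.990), and Sik2, a salt-inducible kinase (0.990). For Dusp5 they were Fosb (0.988), Sik1 (0.987) and Ier2 (0.986), for Dusp16 Fosb (0.991), Pcsk1 (0.989) and Sik1 (0.989), and for Dusp6 Fos (0.984), Rheb (0.980) and Dmxl1 (0.979). Dusp4 paired with Hspa5, the chaperone of the endoplasmic reticulum (0.986), Ptpn23 (0.985) and Acsl4 (0.983). For Dusp8 they were Ccl9 (0.980), Sc5d (0.979) and Acd (0.976), for Dusp10 Sgk1 (0.934), Aldh8a1 (0.929) and Nfkb2 (0.925), and for Dusp14 Trio (0.855), Malat1 (0.852) and Pglyrp1 (0.843). The shared step from saline to SE enters each value, to a degree that differed between genes. With group means removed, the correlation was 0.90 for Dusp1 with Frmd6, 0.83 for Dusp6 with Fos, 0.63 for Dusp5 with Fosb and 0.43 for Dusp16 with Pcsk1. It was 0.65 for Dusp4 with Hspa5, 0.86 for Dusp8 with Ccl9, 0.78 for Dusp10 with Sgk1 and 0.80 for Dusp14 with Trio.

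The remaining genes of the pathway show what moved around these phosphatases, given as SE against saline averaged over genotypes, with 12.1% of all genes rising and 20.6% falling. The Dusp genes themselves had a median of 0.96 in that comparison, against -0.01 over all genes. Of 18 other dual-specificity phosphatases measured, 3 rose and 6 fell, with a median of -0.13. Ssh2, a slingshot phosphatase of cofilin, rose by 0.69 ± 0.0869, while Dusp18 (-0.72 ± 0.0949), Dusp19 (-0.38 ± 0.0624) and Dusp12 (-0.35 ± 0.0647) fell. Dusp9, the remaining cytoplasmic ERK phosphatase, rose by 0.24 ± 0.0676 (adjusted p = 0.0107); it is named here after its value was seen.

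The MAP kinases, the MAP kinase kinases and the MAP kinase kinase kinases had list medians between -0.1 and 0.05. Among 12 MAP kinases 2 rose and 2 fell (median 0.05): the atypical kinases Mapk4 (1.03 ± 0.112) and Mapk6 (0.98 ± 0.113) rose, and Mapk14, which encodes p38 alpha (-0.36 ± 0.0564), and Mapk9, which encodes JNK2 (-0.25 ± 0.0598), fell. Of 6 MAP kinase kinases, Map2k3, an activator of p38, rose (0.63 ± 0.113), and Map2k5 (-0.48 ± 0.0697) and Map2k1, an activator of ERK (-0.22 ± 0.0512), fell. Of 17 MAP kinase kinase kinases 5 rose and 4 fell (median 0.03), with Map3k5, the stress kinase ASK1, at 1.99 ± 0.106, Map3k6 at 0.78 ± 0.0889, Map3k8 at 0.64 ± 0.0748 and Araf at -0.39 ± 0.0441. Among 8 MAP kinase activated kinases 5 rose and 2 fell (median 0.31), including Rps6ka3 (1.08 ± 0.0723), Mknk2 (0.91 ± 0.0619) and Mapkapk2 (0.79 ± 0.117), which rose, and Rps6ka5 (-0.55 ± 0.0738), which fell. Scaffolds of the pathway showed 0 rises and 7 falls among 10 (median -0.21), with the ERK scaffolds Ksr2 (-0.66 ± 0.0737) and Ksr1 (-0.56 ± 0.0581), the JNK scaffold Mapk8ip2 (-0.35 ± 0.0538) and Arrb1 (-0.26 ± 0.0675).

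Upstream, of 15 measured Ras proteins, exchange factors and adaptors 3 rose and 3 fell (median -0.01), among them Rras2 (1.06 ± 0.121), Gab2 (0.42 ± 0.0782), Grb2 (0.24 ± 0.0686) and Sos2 (-0.38 ± 0.0610), and without both arrays whose Dio2 stood apart 3 rose and 1 fell. Of 6 Ras GTPase activators, Rasa2 rose (0.77 ± 0.0684) and Rasa1 (-0.41 ± 0.0718) and Rasal1 (-0.29 ± 0.0974) fell, and without both arrays 1 rose and 1 fell. Among 8 other phosphatases of MAP kinases, Ppm1b (0.41 ± 0.0569), Ppp2ca (0.40 ± 0.0601) and Ppm1d (0.33 ± 0.0728) rose and Ptprr (-0.27 ± 0.0738) fell. The rises of Ppm1b and Ppp2ca were about as large as those of Dusp8 (0.40) and Dusp14 (0.39), and less than the 0.67 of Dusp10.

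Most genes listed as other inhibitors and modulators of the pathway rose. Of 13 measured genes on a list of Sprouty, Spred, Gadd45 and other inhibitors and modulators of the pathway, 11 rose and 0 fell (median 0.91), with Errfi1, an inhibitor of EGF receptors, at 2.05 ± 0.0960, Rgs2, a regulator of G protein signalling, at 1.93 ± 0.121, Spry2 at 1.85 ± 0.103 and Spred2 at 0.91 ± 0.0502. The list is mixed: Gadd45g (3.21 ± 0.231) and Gadd45b (2.55 ± 0.214), named after their values were seen, had its largest rises and encode growth arrest proteins that bind MAP kinase kinase kinases. All 16 measured genes on a list of immediate early genes rose (median 2.16). Among them were Fosb (4.35 ± 0.122), Egr1 (3.21 ± 0.107), Arc (2.83 ± 0.119) and Fosl2 (2.42 ± 0.0924). ERK activity was not measured, so their rise is not a readout of it. Of 18 transcription factors that MAP kinases phosphorylate 7 rose and 4 fell (median 0.16), with rises of Jun (1.94 ± 0.141), Jund (1.24 ± 0.0871) and Etv5 (0.73 ± 0.0792) and a fall of Elk1 (-0.73 ± 0.0613). The interaction was called for 0 genes on these lists.

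**Figure D4:**
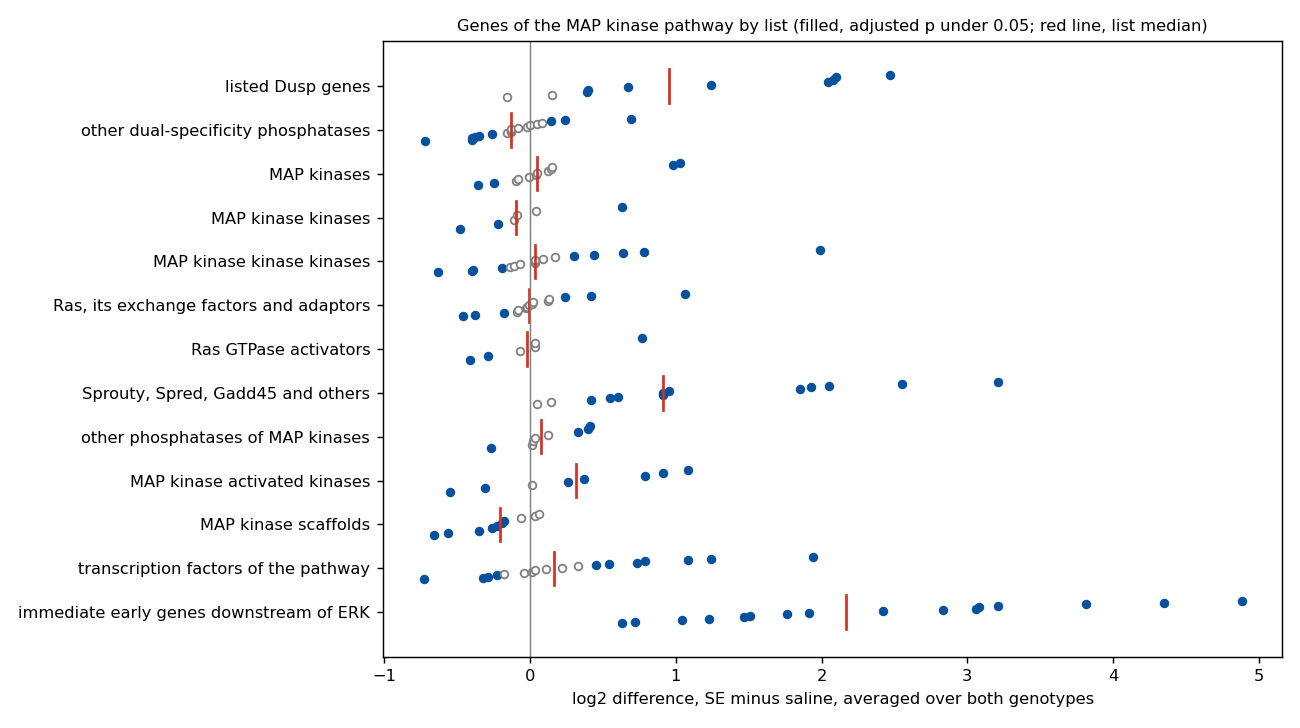
Log2 difference between SE and saline, averaged over genotypes, of each measured gene (points) on each list of the MAP kinase pathway, with list medians as red lines; filled points have an adjusted p under 0.05. Medians are right of 0 for the listed Dusp genes (0.96), the Sprouty, Spred and Gadd45 list (0.91) and the immediate early genes (2.16). The MAP kinases and the kinase lists above them lie around 0, and the MAP kinase activated kinases have a median of 0.31.

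Some cell type markers moved with SE beside these genes, and others did not. Their counts are of SE against saline averaged over genotypes, where 12.1% of all genes rose and 20.6% fell, and their summed log2 levels are ranges over arrays. Of 6 endothelial markers 3 rose and 0 fell: the sum ran from 44.4 to 47.1 under saline and from 47.6 to 48.3 after SE in control mice, and from 45.6 to 46.6 and from 47.6 to 48.2 in Astro-D2KO mice. Of 6 dentate granule cell markers 0 rose and 3 fell, with sums from 44.2 to 48.2 and from 40.5 to 44.9 in control mice and from 41.9 to 47.7 and from 41.9 to 43.5 in Astro-D2KO mice. Of 6 microglia markers 0 rose and 3 fell, with sums from 43.6 to 45.0 and from 41.6 to 43.3 in control mice and from 44.2 to 45.0 and from 41.3 to 43.4 in Astro-D2KO mice. The falls of microglia markers numbered 2 in control and 2 in Astro-D2KO mice taken alone. Of 5 markers of CA2 and CA3 pyramidal cells 0 rose and 2 fell, with sums from 42.1 to 42.7 and from 40.9 to 41.9 in control mice and from 42.4 to 43.3 and from 41.5 to 41.7 in Astro-D2KO mice. Of the 8 neuronal markers 3 rose and 3 fell, with sums from 84.8 to 85.1 and from 85.1 to 86.4 in control mice and from 84.7 to 84.9 and from 85.2 to 86.1 in Astro-D2KO mice. Of 4 neocortex markers 2 rose and 0 fell, with sums from 32.5 to 33.4 and from 33.8 to 36.6 in control mice and from 31.7 to 33.0 and from 33.8 to 34.6 in Astro-D2KO mice. The endothelial and neocortex sums after SE lay above all saline sums, and the microglia and the CA2 and CA3 sums below them. The neuronal sums were higher after SE in Astro-D2KO mice and met at 85.1 in control mice. A sum does not stand for every marker on its list. Endothelial Cdh5 changed by 1.41, but Kdr by -0.15 and Slco1c1 by -0.28. Dentate Dsp, Lct and C1ql2 changed by -1.41, -1.01 and -0.97, but Tdo2, Prox1 and Calb1 by 0.42, 0.18 and 0.06. Neocortex Fezf2 and Rorb changed by 1.19 and 0.87, but Cux2 and Lamp5 by -0.07 and -0.17. Neuronal Nefl, Nefm and Map2 rose (0.82, 0.56 and 0.18), and Rbfox3, Tubb3 and Stmn2 fell (-0.27, -0.24 and -0.14). Among 8 astrocyte markers 1 rose and 2 fell, with sums from 71.4 to 73.4 and from 71.8 to 72.7 in control mice and from 71.1 to 73.2 and from 72.6 to 73.0 in Astro-D2KO mice, so the groups overlapped. Of 3 CA1, 5 oligodendrocyte and 4 choroid plexus markers, 0 rose and 0 fell, though 2 oligodendrocyte markers fell in Astro-D2KO mice alone. Of 7 interneuron markers 2 rose and 1 fell, and of 5 pericyte and smooth muscle markers 1 rose and 2 fell. Of 4 oligodendrocyte precursor markers 0 rose and 1 fell. Of 3 blood cell markers 1 rose and 0 fell, as did 1 and 0 of 4 thalamus and habenula markers. The part of these markers in the changes of the Dusp genes was not tested.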

How the data were processed

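Hippocampal RNA of the mice was hybridised to 16 Affymetrix arrays. The authors deposited log2 values made with RMA, per the submitters' processing notes; the log base is written nowhere and was inferred from values between 1.70 and 13.79. The array annotation gave 23521 of the 41345 probe sets exactly 1 symbol, 1814 several and 16010 none. The probe set with the highest mean stood for each of 22180 genes. All 16 arrays entered a single linear model with a mean for each group (limma 3.58.1, R 4.3.3, default empirical Bayes); p-values are two-sided and adjusted by Benjamini-Hochberg over all genes within each of 7 contrasts, threshold 0.05. The fit was tested on simulated data.

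The members, pathway lists and alternatives were chosen with earlier results of these data known, so they support nothing independently. All members were named; from each list the up to 4 genes with the smallest adjusted p in the averaged SE comparison were named, and for each called Dusp gene the 3 genes most correlated over arrays. Replicate numbers were not used to pair the arrays in the main fit. Alternatives covered probe set choice, a filter on dim genes, normalisation, empirical Bayes options, array weights, a minimum change, the groups fitted, a replicate block and left-out arrays. Arrays have no read depth, so their number limits the precision. Promoter windows came from RefSeq (GRCm38.p6). No coordinates of the arrays were used.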

Additional observations from a re-analysis of the deposited data

Results flagged for a closer look

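In 2 of the 40 sets formed by gene and group, 1 array stood far from the other 3, measured as its gap to the nearest array over the range of the group; about 1 group in 20 is expected to show this by chance. Dusp2 stood at 6.47 in Astro-D2KO SE replicate 2, against 6.57 to 6.59 in the rest of that group. Dusp10 stood at 5.75 in Astro-D2KO saline replicate 3, against 6.31 to 6.38 in the rest, and the rise of Dusp10 with SE in Astro-D2KO mice was 0.44 without that array, against 0.59 with it.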

How the results depend on the processing

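Over the alternatives run, the counts of called Dusp genes changed by at most 2 and no call changed direction. Leaving out 1 array gave 7 to 8 genes with SE in control mice, 7 to 8 in Astro-D2KO mice and 8 to 9 averaged over genotypes; the other alternatives gave 6 to 8, 6 to 8 and 6 to 9, the count of 6 coming from a minimum of 1.5-fold. The genotype comparisons and the interaction stayed at 0 in all of them. With the replicate block the counts were 8, 7 and 8. Of 24 pairs of same-numbered arrays, 4 had deviations correlated above 0.1 (range -0.286 to 0.338). Differently numbered arrays were not compared in this way, so whether the numbers pair the arrays cannot be decided. The minimum of 1.5-fold dropped Dusp8 in each of these comparisons and Dusp14 where it was called; the other calls gained or lost were of Dusp2, Dusp7 and Dusp14. Centring or repeated quantile normalisation moved the median of all genes by less than 0.1. Precision is limited by 4 arrays a group.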
